A study of Mus musculus with 8 samples.

Results

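The C1q-like genes C1ql1, C1ql2, C1ql3 and C1ql4 and the cerebellin genes Cbln1, Cbln2, Cbln3 and Cbln4 encode small secreted proteins that organize synapses. These 8 of the 38355 genes in the count files were followed by RNA sequencing of mouse embryos (strain C57Bl6, stage E11.5). Thoracic dorsal root ganglia had been dissected together with the adjoining spinal cord, and the study compared 4 wild-type (WT) libraries with 4 libraries from Prdm12-/- embryos (KO). The study asked which genes depend on Prdm12, a zinc-finger transcription factor of somatosensory neurons. Members were taken by gene symbol, and the family was chosen by the fold change of C1ql4 between KO and WT, which had been called higher in KO in these same libraries. Differences between KO and WT in the 8 genes are therefore given as a description with their error, without a p-value, while receptors, partners and neighbouring genes were tested. The labels do not say which part of Prdm12 was deleted or whether a library came from 1 embryo or several, so the spread between libraries may be partly technical. The series text speaks of triplicates, but each genotype has 4 listed libraries and every one was used.

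Proteins of both subfamilies end in a globular domain shared with complement component C1q and are released by axons into the synaptic cleft. Cerebellins join presynaptic neurexins to postsynaptic delta-type glutamate receptors, the best known case being Cbln1 at the synapses between parallel fibres and Purkinje cells. C1q-like proteins bind the adhesion receptor Adgrb3 (also called BAI3), and C1ql2 and C1ql3 recruit kainate receptors at hippocampal mossy fibre synapses. At this stage of development the spinal cord and the ganglia hold progenitors and young neurons, in which few synapses have formed.

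The sequences just upstream of C1ql4, the member called higher in KO, and of its paralogue C1ql2, the member with the fewest reads, were taken from RefSeq (GRCm38.p6, the assembly called mm10), in which 5 of the 8 genes had an entry. Each line gives 161 bases 5′ to 3′ on the strand of the gene, from 250 to 90 bases before the gene start in RefSeq and upstream of the start in GENCODE, with the dinucleotide CG in capitals.
C1ql4: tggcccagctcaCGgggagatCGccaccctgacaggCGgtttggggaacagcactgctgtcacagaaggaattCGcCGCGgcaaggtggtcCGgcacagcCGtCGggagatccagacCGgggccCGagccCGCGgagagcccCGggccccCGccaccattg
C1ql2: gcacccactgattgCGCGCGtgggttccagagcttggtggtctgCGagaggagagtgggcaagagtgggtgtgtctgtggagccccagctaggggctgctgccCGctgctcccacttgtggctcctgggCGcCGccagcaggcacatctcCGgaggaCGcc
The C1ql4 window lies at chr15:99087818-99087978 on the minus strand and the C1ql2 window at chr1:120340332-120340492 on the plus strand. Both were rich in G and C, at 70.2% for C1ql4 and 67.7% for C1ql2 against a median of 50.9% over the same window of 27025 genes. C1ql4 held 15 CG dinucleotides and C1ql2 held 9, and 89.8% and 76.1% of genes held fewer than the respective member. Neither window held the motifs TAATTA or GATA on either strand, which 3.55% and 43.6% of all windows held. The motif CANNTG was found 0 times in C1ql4 and 1 time in C1ql2, and 51.6% of all windows held it. A match or its lack describes only the letters in these windows.

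Libraries held between 23088908 and 28500792 counts, apart from WT replicate 1 with 67782435. After every library was thinned to 23088908 counts, a check added after seeing the data, pairs with WT replicate 1 had a chi-square per degree of freedom of 11.9 to 14.3, against 4.09 to 6.84 among the other WT pairs and 5.68 to 13.8 among the KO pairs. The deleted gene Prdm12 had 22.1, 37.9, 39.5 and 31.9 CPM (the share of the scaled library's counts, times 1e6) in the WT libraries in replicate order, and 1.55, 1.52, 0.974 and 0.961 CPM in the KO libraries. Every KO library was thus far below every WT library for this gene. Of the listed sensory neuron markers, Pou4f1 had 93.9 CPM on average in WT and 65.2 CPM in KO. Of the listed spinal progenitor markers, Sox2 had 156 and 133 CPM. Ganglia and cord were dissected together, so these levels do not show which tissue the reads came from. Muscle and mesenchyme genes were also present, so the libraries held tissue around the neural tube too. Of 14 marker lists, the only gene at 0 counts in all libraries was Noto, a notochord gene.

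Cbln1 and Cbln2 had the highest levels of the 8 genes and C1ql2 the lowest. Per kb of merged exons, Cbln1 had the highest WT level at 8.89 ± 0.457 CPM per kb (SD, n = 4). Cbln2 followed at 5.03 ± 0.692 CPM per kb, below Cbln1 in each of the 4 WT libraries. C1ql4 came next at 2.54 ± 0.160 CPM per kb, followed by C1ql1 at 2.28 ± 0.317 and C1ql3 at 1.86 ± 0.264 CPM per kb (SD, n = 4 each). The WT libraries of C1ql4 and C1ql1 overlapped on this scale, as did those of C1ql1 and C1ql3. The spread thus did not separate C1ql1 from either gene, although C1ql1 lay above C1ql3 in each of the 4 WT libraries. C1ql4 lay above C1ql3 without overlap, at 2.36 to 2.74 against 1.56 to 2.19 CPM per kb. Cbln4 lay lower at 0.972 ± 0.141 CPM per kb, Cbln3 at 0.170 ± 0.0152 and C1ql2 at 0.0742 ± 0.00326 CPM per kb (SD, n = 4 each), each without overlap with the gene above it. The SD of C1ql2, 4.39% of its WT mean, understates its error, because counting alone gives 46.1% at 4 to 10 counts per library. In KO the order changed only in that C1ql3 (2.01 ± 0.109 CPM per kb) and C1ql1 (2.01 ± 0.410 CPM per kb) exchanged places with overlapping libraries. C1ql4 in KO, at 4.33 ± 0.705 CPM per kb, overlapped neither of them and stayed below Cbln2, at 5.59 ± 0.911 CPM per kb (SD, n = 4 each). The margin to Cbln2 was minute in KO replicate 4, where both rounded to 5.04 CPM per kb.

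**Figure D1:**
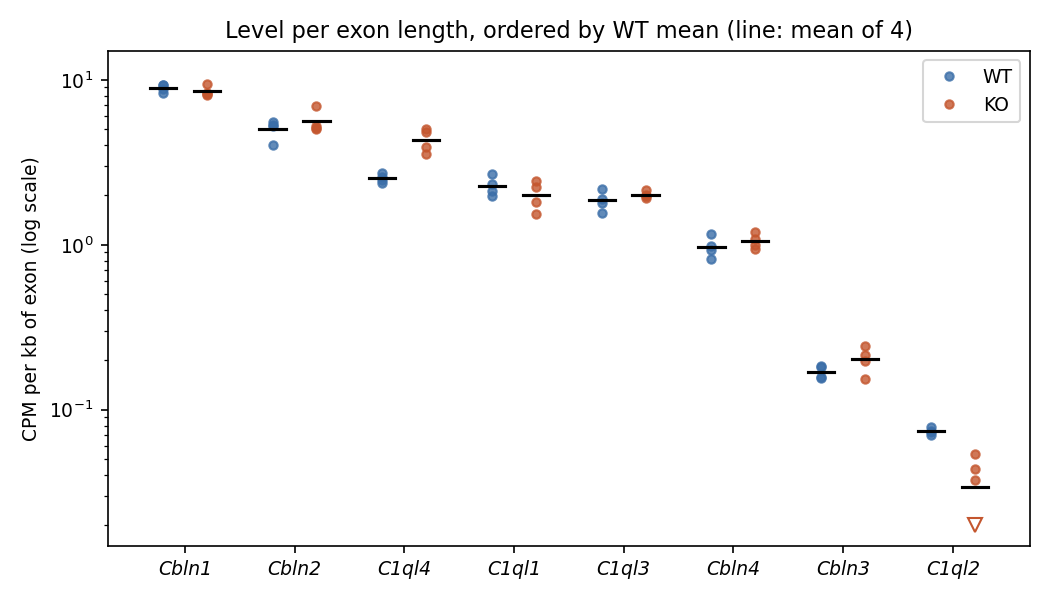
CPM per kb of merged exons (log scale) for the 8 genes ordered by their WT mean, with 1 point per library in WT (blue) and KO (orange) and a line at the mean of 4 libraries; the open triangle marks a KO library with 0 counts. Cbln1 and Cbln2 lie at the top, and C1ql4 is next in both groups at 2.54 CPM per kb in WT and 4.33 CPM per kb in KO.

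C1ql4 (ENSMUSG00000001076, mm10 chromosome 15, 99084086 to 99087817, minus strand, a protein-coding gene of 2 exon blocks) encodes a secreted C1q-like ligand of Adgrb3. It had 3.47, 3.80, 4.03 and 3.66 CPM in WT replicates 1 to 4 and 5.78, 7.08, 5.24 and 7.43 CPM in KO replicates 1 to 4. All 4 KO libraries lay above all 4 WT libraries, with KO replicates 2 and 4 highest. The means were 3.74 ± 0.236 CPM over the WT and 6.38 ± 1.04 CPM over the KO libraries (SD, n = 4 each), a fitted log2 fold change of 0.77 (SE 0.13). The gene had between 103 and 234 counts per WT library and between 140 and 177 per KO library. The spread within WT was 6.31% of the mean, under the 9.24% that counting alone gives, and within KO it was 16.3% against 7.88% from counting. C1ql4 was the 1 member of the 7 that passed the filter on low counts to be called by edgeR (adjusted p under 0.05), where 0.299% of all 16068 tested genes were called (0.056% higher in KO), and this call is what brought the family forward. The difference remained called without WT replicate 1 (log2 fold change 0.74) but not without WT replicate 2, 3 or 4 or without KO replicate 1, 2 or 4, although the log2 fold change stayed between 0.70 and 0.86 over the 8 fits that each left out 1 library. In such mixed tissue, more cells of a type and more RNA per cell cannot be told apart.

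**Figure D2:**
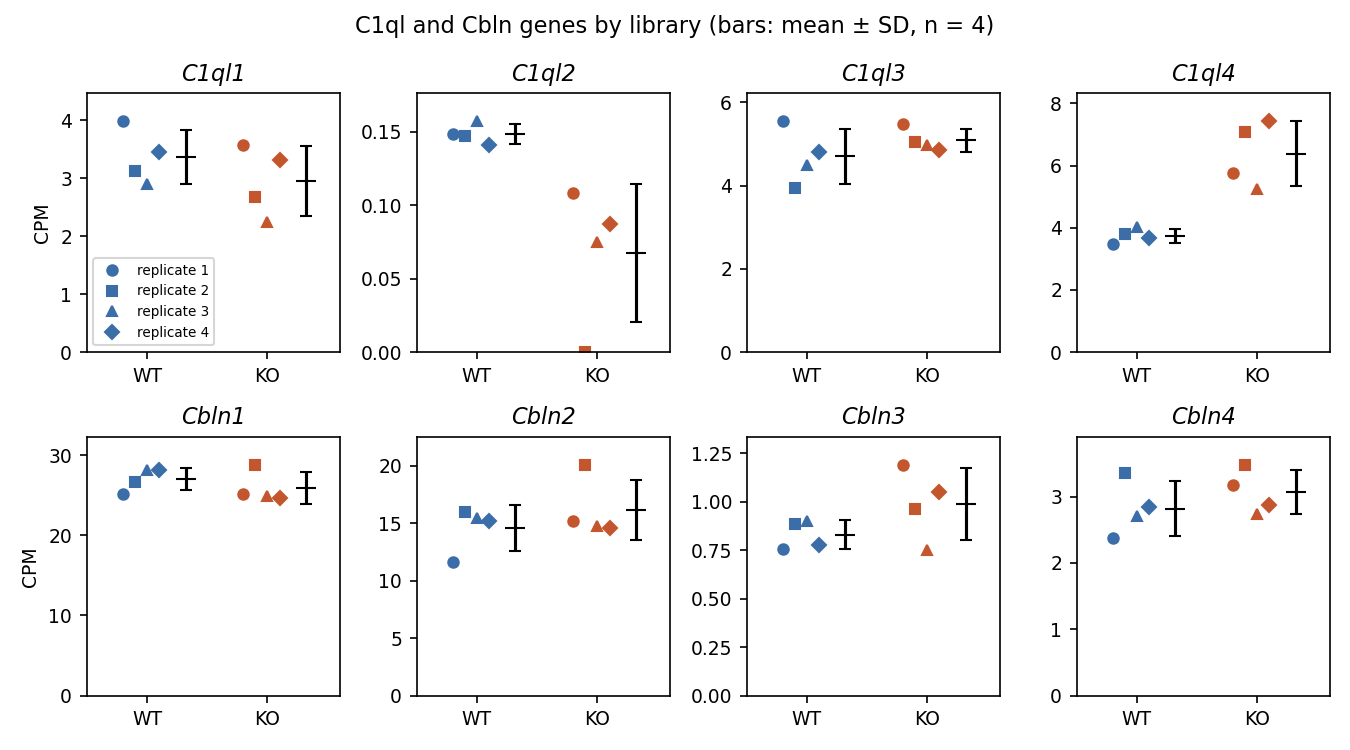
CPM of each of the 8 genes in the 4 WT (blue) and 4 KO (orange) libraries, with a marker shape per replicate and the mean ± SD (n = 4) beside them; vertical axes start at 0 and differ between panels. The KO libraries of C1ql4, from 5.24 to 7.43 CPM, all lie above its WT libraries, whereas the groups overlap for the other genes except C1ql2, which has at most 10 counts in any library.

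The paralogues C1ql3 and C1ql1 overlapped between the groups. C1ql3 (ENSMUSG00000049630, chromosome 2, 13003457 to 13011806, minus strand), a ligand of Adgrb3 in the forebrain, had 5.55, 3.95, 4.50 and 4.82 CPM in WT and 5.49, 5.04, 4.98 and 4.85 CPM in KO. Its groups overlapped, with WT replicate 1 highest and WT replicate 2 lowest of all 8 libraries. The log2 fold change was 0.10 (SE 0.12), 0.21 without WT replicate 1, 0.07 without KO replicate 1 and 0.03 without WT replicate 2, and 0.36 when a score of muscle and mesenchyme genes (defined with the marker lists) was a covariate. C1ql3 lies 18.6 Mb from Prdm12 on the same chromosome. Of its 50-base exon sequences 61.7% also occur, on the other strand, in the GENCODE genes Gm37811 and Gm37824, neither of which has a row in the count files.

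C1ql1 (ENSMUSG00000045532, chromosome 11, 102939264 to 102946688, minus strand), the ligand that climbing fibres release onto Purkinje cells, had 3.98, 3.13, 2.90 and 3.45 CPM in WT and 3.57, 2.68, 2.25 and 3.32 CPM in KO. The groups overlapped and replicate 1 was the highest library in each. The log2 fold change was −0.20 (SE 0.17), −0.09 without WT replicate 1, −0.31 without KO replicate 1, −0.08 without KO replicate 3 and 0.009 with that score. C1ql2 (ENSMUSG00000036907, chromosome 1, 120340582 to 120343174, plus strand), the mossy fibre paralogue, had 10, 4, 4 and 4 counts in WT and 3, 0, 2 and 2 counts in KO and did not pass the filter. Summed over libraries it had 22 counts in WT and 7 in KO, a ratio of WT to KO of 2.17 relative to library size with an exact 95% interval of 0.894 to 6.0 that covers counting error only. Every KO library, at 0 to 0.108 CPM, lay below every WT library, at 0.141 to 0.157 CPM, but the counting interval of the ratio includes 1. The library with 0 counts allows up to 0.120 CPM (3 counts), which is close to the WT values.

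All 4 cerebellin genes overlapped between the groups. Cbln1 (ENSMUSG00000031654, chromosome 8, 87468405 to 87472609, minus strand), the founding cerebellin, had 25.2, 26.7, 28.1 and 28.1 CPM in WT and 25.2, 28.8, 24.9 and 24.6 CPM in KO. KO replicate 2 was the highest library, while the other KO libraries lay close to or below the lowest WT library. With between 564 and 1695 counts per library it was the most precisely measured member, and its log2 fold change was −0.06 (SE 0.07). Leaving out single libraries moved this value between −0.11 and −0.03.

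Cbln2 (ENSMUSG00000024647, chromosome 18, 86711110 to 86718283, plus strand), which binds neurexins as Cbln1 does, had 11.6, 16.0, 15.5 and 15.2 CPM in WT and 15.2, 20.1, 14.8 and 14.6 CPM in KO. One library in each group stood apart, WT replicate 1 at the low end and KO replicate 2 at the high end. The log2 fold change of 0.16 (SE 0.13) was 0.06 without WT replicate 1, 0.04 without KO replicate 2 and 0.07 with the score. The spread within groups was 13.7% of the mean in WT and 16.3% in KO, against 4.73% and 4.93% from counting, so the libraries differed in Cbln2 by more than counting error within each group.

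Cbln4 (ENSMUSG00000067578, chromosome 2, 172036233 to 172043466, minus strand), a cerebellin that also binds the netrin receptor DCC, had 2.37, 3.36, 2.70 and 2.85 CPM in WT and 3.18, 3.48, 2.73 and 2.88 CPM in KO. As with Cbln2, WT replicate 1 was the lowest and KO replicate 2 the highest of the 8 libraries. The log2 fold change was 0.13 (SE 0.14), 0.05 without WT replicate 1, 0.23 without WT replicate 2, 0.07 without KO replicate 2 and 0.08 with the score. Cbln3 (ENSMUSG00000040380, chromosome 14, 55878913 to 55884392, minus strand), whose protein is secreted only together with Cbln1, had 0.757, 0.885, 0.901 and 0.774 CPM in WT and 1.19, 0.960, 0.749 and 1.05 CPM in KO. It had between 20 and 51 counts per library, and its spread of 8.93% in WT and 18.7% in KO was no larger than the 19.7% and 20.0% that counting gives. The log2 fold change was 0.27 (SE 0.19) and 0.16 without KO replicate 1, and KO replicate 3 lay below all WT libraries.

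C1ql4 made up a larger part of the C1q-like reads in every KO library, while the sums of the other members were close between the groups. C1ql4 contributed 26.4%, 34.4%, 34.8% and 30.3% of the reads of the 4 C1q-like genes in WT replicates 1 to 4. In KO replicates 1 to 4 it contributed 38.6%, 47.8%, 41.8% and 47.4%, above each WT library. The 3 other C1q-like genes together had 8.22 ± 1.09 CPM over the WT and 8.11 ± 0.804 CPM over the KO libraries (SD, n = 4 each). The 4 cerebellins together had 45.2 ± 3.54 CPM over the WT and 46.1 ± 4.86 CPM over the KO libraries. For every 1 read of C1ql3 there were 0.811 ± 0.150 reads of C1ql4 in WT and 1.26 ± 0.245 in KO, and no KO library (1.05 to 1.53) fell into the WT range (0.626 to 0.963). These ratios compare reads, not transcripts, because the genes differ in length. Over the 7 genes that passed the filter, 5 log2 fold changes were positive and 2 negative, with a median of 0.13 beside −0.003 for all 16068 genes. Groups did not overlap, with KO higher, in 1 of these 7 genes, compared with 1.69% of all tested genes. That gene is C1ql4, whose difference brought the family forward. This count, the share of C1ql4 and its ratio to C1ql3 therefore restate the choice and are no separate result.

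Genes were ranked by how near their values over the 8 libraries lay to those of C1ql4. Among 13492 tested protein-coding genes with a mean of at least 1 CPM, the 3 with the smallest root mean square difference from C1ql4 in centred log2 CPM included Gata2 and Lhx3, both at 0.185. Gata2 and Lhx3 encode transcription factors of the V2b and V2a classes of ventral interneurons, and Lhx3 also marks motor neurons. Likeness was measured over both groups, so these genes were in effect picked for sharing the difference between KO and WT, and their values are a description with no test. Gata2 had 11.9, 11.7, 9.87 and 10.7 CPM in WT and 16.0, 15.4, 15.2 and 19.4 CPM in KO (log2 fold change 0.58, SE 0.09). Lhx3 had 18.6, 17.5, 20.1 and 19.5 CPM in WT and 25.8, 25.4, 28.1 and 32.1 CPM in KO (log2 fold change 0.56, SE 0.08). In both genes KO replicate 4 was the highest library, as in C1ql4, but the order of the other KO libraries differed. KO replicate 2, next to the highest in C1ql4 at 7.08 CPM, was the lowest KO library of Lhx3 (25.4 CPM).

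The summed level of 8 V2 markers was 85.1, 86.4, 89.5 and 92.0 CPM in WT replicates 1 to 4 and 128, 129, 129 and 131 CPM in KO replicates 1 to 4, and 8 of the 8 genes had positive log2 fold changes, with 4 called. Of all tested genes 48.4% had a positive value, 0.056% were called higher and 0.243% lower. Of the V0 interneuron markers 4 of 4 were positive with 0 called. Of the V1 markers 2 of 3 were negative, with 1 called lower (Foxd3, also in the glia and crest list). Of the dorsal interneuron markers 7 of 8 were negative with 0 called. The summed levels of each of these other interneuron lists overlapped between groups. Sensory neuron markers were counted without the deleted gene Prdm12, a choice made after seeing the data: 8 of 9 were negative and 3 called lower, with sums of 285 to 385 CPM in WT and 230 to 257 CPM in KO. Markers of skeletal muscle (8 of 8 positive, 0 called, summed 558 to 673 CPM in WT and 625 to 925 CPM in KO) and of mesenchyme and sclerotome (11 of 11 positive, 0 called, 2861 to 3817 and 3556 to 4124 CPM) overlapped between groups and were higher on average in KO. With the mean log2 CPM of these 19 muscle and mesenchyme genes as a covariate, C1ql4 had a log2 fold change of 0.52 (SE 0.19) and was not called, and 1 gene over all was called. This score was 6.5, 6.65, 6.62 and 6.52 in WT and 6.64, 6.76, 6.77 and 6.9 in KO. It largely went with genotype, so fits with the score cannot separate it well from the effect of genotype. The part of V2 or other interneurons, sensory neurons, muscle or mesenchyme in the C1ql4 difference was not tested.

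**Figure D3:**
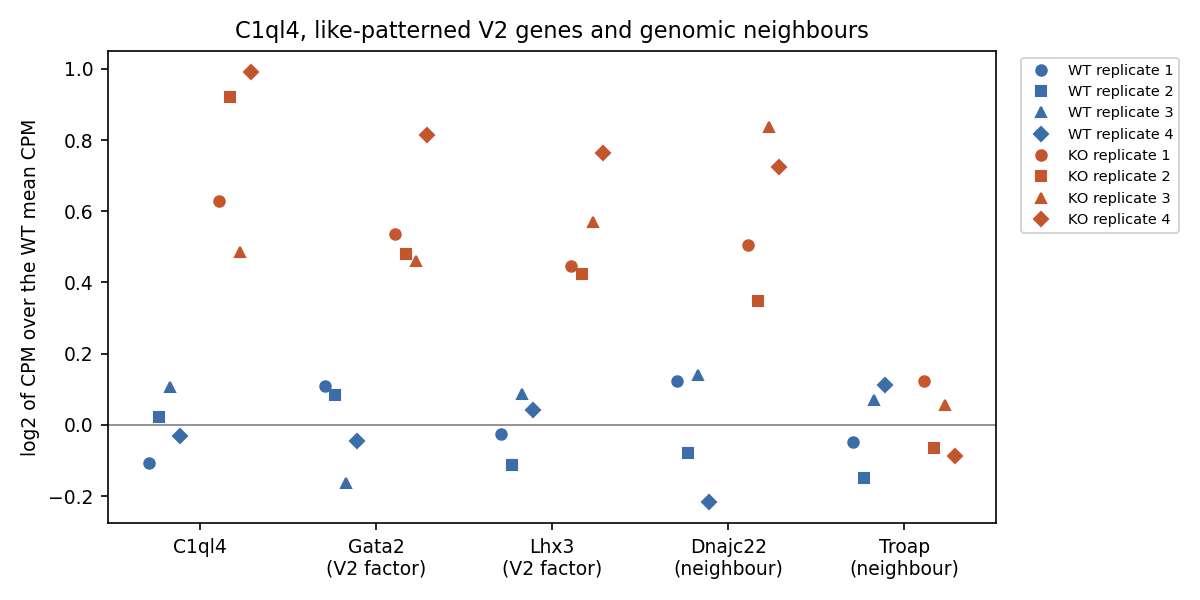
Log2 of each library's CPM over the WT mean of the same gene, for C1ql4, the V2 factors Gata2 and Lhx3, and the genomic neighbours Dnajc22 and Troap, with WT libraries in blue, KO libraries in orange and a marker shape per replicate. Gata2 and Lhx3 were chosen for likeness to C1ql4 over these libraries; of the neighbours, Dnajc22 lies higher in KO and the groups of Troap overlap around 0.

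The other members resembled genes of other kinds. Nearest to Cbln1 was Nsg2, a neuronal endosomal protein gene, at a root mean square difference of 0.026. Cbln2 lay nearest to Trim46, a gene of the axon initial segment, at 0.047, and also had the potassium channel partner Dpp6 among its 3 nearest. Cbln4 lay nearest to the collagen gene Col11a1 (0.049), C1ql1 to Emid1 (0.081) and C1ql3 to the zinc-finger gene Zfp984 (0.057). For Cbln3 the 3 nearest genes included the complement gene C1qb (0.097). A gene that varies little lies near many others on this measure, so the values for Cbln1 and C1ql4 are not comparable.

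The genes on both sides of C1ql4 differed from each other. Troap, a gene of the mitotic spindle, ends 0.677 kb from the end of C1ql4 on the opposite strand, without shared exon bases. It had 27.0, 25.2, 29.3 and 30.2 CPM in WT and 30.4, 26.7, 29.0 and 26.3 CPM in KO (log2 fold change 0.01, SE 0.07, edgeR adjusted p = 0.997). Its groups overlapped throughout. Dnajc22, a gene for a DnaJ-type protein, starts 5.35 kb from the start of C1ql4 and is transcribed in the other direction. It had 0.891, 0.774, 0.901 and 0.704 CPM in WT and 1.16, 1.04, 1.46 and 1.35 CPM in KO, so that all KO libraries were above all WT libraries. The log2 fold change of Dnajc22 was 0.60 (SE 0.18), which did not pass over all genes (edgeR adjusted p = 0.473). Of the 6 tested genes within 100 kb of C1ql4, 0 were called by edgeR. No called gene lay within 100 kb of any other member, out of 17 tested genes in all around those members. Around Cbln2 and Cbln4 no gene within that distance was tested, so no call was possible there. Over all tested genes 0.299% were called, so no calls among so few genes is near that share.

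Receptors and binding partners of the family were all measurable and none passed the test. Of 15 genes, 0 were called by edgeR and 0 by DESeq2, against 0.299% and 0.667% of all genes. No calls among 15 genes is near those shares. An unadjusted edgeR p under 0.05 was seen in 1, against 6.35% of all tested genes, and the median log2 fold change was −0.001. Adgrb3, the receptor of the C1q-like proteins, had 24.0 ± 3.91 CPM over the WT and 23.5 ± 2.88 CPM over the KO libraries (SD, n = 4 each; log2 fold change −0.03, SE 0.13). Grid1, the delta-type glutamate receptor gene with the smallest p of this list, had 9.65 ± 1.20 CPM over the WT and 11.2 ± 0.145 CPM over the KO libraries (log2 fold change 0.22, SE 0.09, edgeR adjusted p = 0.743). The neurexin genes Nrxn2 and Nrxn3 had log2 fold changes of −0.08 and −0.33 with SE of 0.13 and 0.22, and Nrxn3 stood at −0.52 without KO replicate 2 and −0.20 without KO replicate 3. The kainate receptor gene Grik3 stood at 48.0 ± 5.17 CPM over the WT and 42.2 ± 3.84 CPM over the KO libraries (log2 fold change −0.18, edgeR adjusted p = 0.806). The netrin receptor gene Dcc had a log2 fold change of −0.12 (edgeR adjusted p = 0.845), −0.19 without KO replicate 1, −0.07 without KO replicate 3 and −0.008 with the score. In each of the 15 genes the WT and KO libraries overlapped. Over all tested genes 4.14% had groups that did not overlap, so finding none among 15 is near that share.

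**Figure D4:**
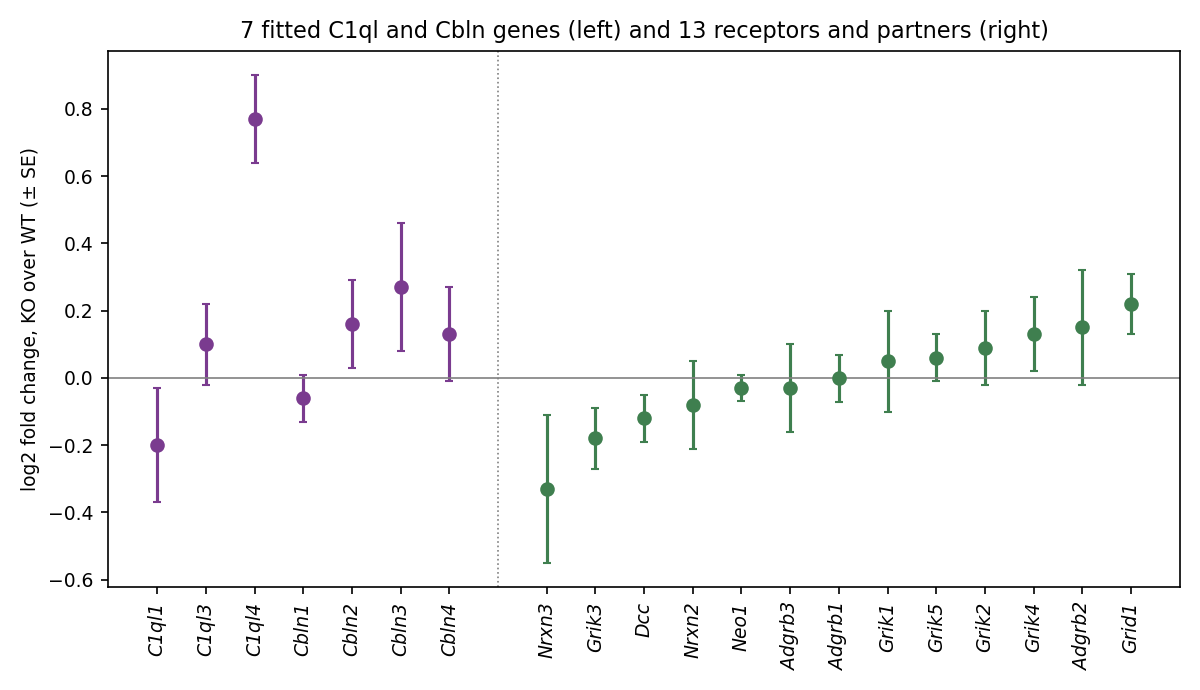
Fitted log2 fold change of KO over WT with its SE for the 7 family members that passed the filter (purple) and for 13 of the 15 receptors and binding partners ordered by value (green). C1ql4 lies at 0.77, and the receptors and partners drawn range from −0.33 (Nrxn3) to 0.22 (Grid1).

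Other synaptic organizers were likewise without calls. Of 64 listed genes 63 were tested, and 0 were called by edgeR and 0 by DESeq2, near the 0.299% and 0.667% over all genes. An unadjusted edgeR p under 0.05 was seen in 7, against 6.35% of all tested genes, and the median log2 fold change was 0.01. Thbs4, a secreted thrombospondin, had 4.06 ± 0.647 CPM over the WT and 5.67 ± 0.819 CPM over the KO libraries (SD, n = 4 each; log2 fold change 0.49, SE 0.15, edgeR adjusted p = 0.475). Adam23, a receptor of LGI proteins, had 22.5 ± 1.01 and 26.2 ± 2.12 CPM (log2 fold change 0.22, edgeR adjusted p = 0.506). These were the 2 genes of the list whose groups did not overlap, both with KO higher, against 1.69% of all tested genes. Fgf7, a growth factor that organizes inhibitory synapses, had a log2 fold change of 0.49 (edgeR adjusted p = 0.643), and the receptor phosphatase gene Ptprf −0.14 (edgeR adjusted p = 0.706). With the score as covariate, Thbs4 stood at 0.17, Fgf7 at 0.14 and Ptprf at −0.21 on the log2 scale.

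More distant relatives that carry a C1q domain also gave no calls. Of 22 genes 17 were tested, and 0 were called by edgeR and 0 by DESeq2, near the 0.299% and 0.667% over all genes. An unadjusted edgeR p under 0.05 was seen in 2, against the same 6.35%, and the median log2 fold change was 0.03. The extracellular matrix gene Emilin1 had 204 ± 14.3 CPM over the WT and 231 ± 18.6 CPM over the KO libraries (SD, n = 4 each; log2 fold change 0.18, edgeR adjusted p = 0.674). The complement genes C1qc and C1qb, made by macrophages, had log2 fold changes of 0.22 (edgeR adjusted p = 0.76) and 0.11 (edgeR adjusted p = 0.935), and C1qtnf7 had 0.48 (SE 0.25, edgeR adjusted p = 0.839). C1qtnf7 stood at 0.13 without KO replicate 4, and C1qb lay between 0.03 and 0.19 without single libraries. When the score of muscle and mesenchyme genes was a covariate, Emilin1 stood at −0.006 and C1qtnf7 at −0.08 on the same log2 scale.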

How the data were processed

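RNA was isolated on spin columns and sequenced after standard Illumina library preparation, per the labels' protocols. Raw counts of reads per gene were deposited for each library. Per the submitters' processing notes, build mm10 was used with featureCounts 1.4.6-p1 and STAR 2.3.0e; the notes also name DESeq2 1.8.2, SAMtools 0.1.18 and FastQC 0.10.1. Annotation release, strand setting and treatment of shared reads: not given in the sources used here. The 5 summary rows of each file held 0 counts and were left out. Symbols, coordinates and exon lengths came from GENCODE M21 (GRCm38), in which 36602 of 38355 identifiers matched, and all 8 family members were found. Transcripts of 7 members shared at most 1.87% of their 50-base sequences with other genes, and C1ql3 61.7%.

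KO and WT (4 libraries each, grouped by title) were compared in R 4.3.3 by edgeR 4.0.16 using filterByExpr, TMM scaling, a robust quasi-likelihood fit on group, and adjustment by Benjamini-Hochberg over 16068 genes, with calls at 0.05. SE values are the absolute log2 fold change over the root of the F statistic. CPM use TMM-scaled library sizes, and log2 CPM a prior count of 2. At the smallest library 1 CPM is 23.1 counts, which limits Cbln3 and C1ql2. Intervals and floors cover counting error only. On simulated counts for KO against WT (15936 genes tested) the fit found 71.4% of 63 genes made to differ 1.5-fold and 90.8% of 65 made to differ 2-fold, while 5.59% of calls were false. No pair of libraries of a group agreed within sampling noise (chi-square per degree of freedom at least 4.58), so all counted as replicates.

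The family and the lists were chosen with earlier results of these data known. The text names all members, Prdm12, called genes or the 4 smallest p of each list, the 3 nearest genes by likeness, and the nearest tested neighbours of C1ql4. Other genes were chosen after their values were seen, and some within the rule are not reported here. Alternatives were DESeq2 1.42.0, library totals, no filter, the replicate number as a block, a muscle and mesenchyme score as covariate, another gene length, and fits without each library.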

Additional observations from a re-analysis of the deposited data

Results flagged for a closer look

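The library farthest from its group was checked with Dixon's ratio in each of 48 groups of 4 libraries. These covered the 8 genes, their sums, the ratio of C1ql4 to C1ql3 and the named list genes. In 7 groups it stood out, where chance gives about 1 in 20 for independent groups. The groups share libraries and the sums contain the single genes, so the 7 cannot be set against that rate. KO replicate 2 stood out as the highest KO library for Cbln1 (28.8 CPM), Cbln2 (20.1 CPM) and the 4 cerebellins summed (53.3 CPM). WT replicate 1 stood out as the lowest WT library for the 4 cerebellins summed (39.9 CPM). Outside the family, WT replicate 2 was apart for Ptprf (512 CPM), and KO replicate 4 for Emilin1 (258 CPM) and C1qtnf7 (8.34 CPM).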

How the results depend on the processing

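C1ql4 kept its direction in all 13 alternative fits and its call with DESeq2, library totals, no filter, without WT replicate 1 and without KO replicate 3. The count of called members, 1, was 0 with the replicate block, with the muscle and mesenchyme score and without any other library, so leaving out 1 library gave 0 to 1. Over all genes, 9 rose and 39 fell. DESeq2 gave 22 and 81, the replicate block 2 and 14, and the score 0 and 1. Leaving out 1 library gave 3 to 21 rises and 12 to 112 falls, the highest without WT replicate 1. Replicate numbers did not pair the libraries (correlations −0.11, 0.28, −0.19 and −0.01), and the block gave C1ql4 a log2 fold change of 0.76. With the score, C1ql1 turned to 0.009, Emilin1 to −0.006 and C1qtnf7 to −0.08, and the median of the C1q-domain list was −0.08. Troap lay between −0.04 and 0.05 without 1 library and was negative without WT replicate 2 (−0.04), KO replicate 1 (−0.03) or KO replicate 3 (−0.001). The cause of these changes was not tested. With the length of the longest transcript Cbln1 stood at 9.64 CPM per kb, and C1ql4 kept its place in the order of WT levels.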

Other observations

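Neto1, a kainate receptor partner and the nearest tested gene before Cbln2 at 204 kb, was looked at after its values were seen. It ranged from 0.787 to 2.25 CPM in WT and from 0.899 to 2.88 CPM in KO. As in Cbln2 and Cbln4, WT replicate 1 was the lowest library and KO replicate 2 the highest. The group means of Neto1, 1.72 and 1.70 CPM, were close (log2 fold change 0.04, SE 0.42, edgeR adjusted p = 0.999). En1, the V1 interneuron gene 259 kb from C1ql2, had 24.0 ± 4.70 CPM over the WT and 16.4 ± 2.19 CPM over the KO libraries (SD, n = 4 each; log2 fold change −0.54, edgeR adjusted p = 0.393).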
